A study of Homo sapiens with 2 samples.

Results

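Immediate early response genes are genes whose transcription begins within minutes of a stimulus and needs no new protein synthesis. The 10 genes described here were chosen by name, as every gene probe on both arrays that is annotated FOS, FOSB, FOSL1, JUN, JUNB, JUND, EGR1, ATF3, IER2 or DUSP1. All 10 had a probe that was measured, out of 13718 measured genes, and together they had 13 probes. The RNA came from RMG1, an established cell line of ovarian clear cell adenocarcinoma, grown in DMEM/F12 medium with 10% FBS. Its cells were sorted with the ALDEFLUOR assay, in which cells with aldehyde dehydrogenase (ALDH) activity retain a fluorescent product, into ALDH+ cells and ALDH- cells. Cells treated with DEAB, an inhibitor of the enzyme, served as the negative control of the assay. RMG1 is the line given in the sample labels; the methods give AMOC2 instead. On array 1 ALDH+ cells were labeled with Cy5 and ALDH- cells with Cy3, and on array 2 the dyes were exchanged. The same ALDH+ RNA and the same ALDH- RNA were used on both arrays. Each population was therefore represented by 1 sample, no test could be run, and every SD below is the technical SD of the 2 arrays. The question was how each gene's level in ALDH+ cells compared with that in ALDH- cells of the same line.

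FOS, FOSB and FOSL1 encode proteins that pair with the products of JUN, JUNB and JUND to form AP-1, a dimeric transcription factor of the basic leucine zipper (bZIP) family. ATF3 is a bZIP factor induced by many kinds of stress, and EGR1 is a zinc finger factor induced by growth factors. DUSP1 is a phosphatase that inactivates MAP kinases, and IER2 is a nuclear protein of the early response. Transcription of many of these genes is switched on when MAP kinases phosphorylate ternary complex factors such as ELK1, which sit with serum response factor (SRF) on the CArG box of the serum response element. Phosphorylated CREB or ATF proteins act through the cAMP response element (CRE).

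Upstream sequences of the genes are shown because the known inputs to this gene class act there. RefSeq (GRCh38.p14) listed 10 start sites for 9 of the 10 genes, and FOSL1 had no entry. The 250 bases before each start were searched on both strands for the CRE (TGACGTCA), its core (TGACG, which also lies within the full CRE), the AP-1 site (TGACTCA), the TATA box (TATAAA), the EGR site (GCGTGGGCG or GCGGGGGCG) and the CArG box. The 6 windows below run 5′ to 3′ on the gene's strand, and capitals mark a CRE or its core, a TATA box or a CArG box.
FOS, chr14:75278578-75278827, plus strand: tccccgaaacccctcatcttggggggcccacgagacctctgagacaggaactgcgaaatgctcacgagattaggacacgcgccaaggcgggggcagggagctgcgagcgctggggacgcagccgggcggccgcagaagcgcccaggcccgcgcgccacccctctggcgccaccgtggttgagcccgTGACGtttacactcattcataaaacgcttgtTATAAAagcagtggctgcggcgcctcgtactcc
DUSP1, chr5:172771196-172771445, minus strand: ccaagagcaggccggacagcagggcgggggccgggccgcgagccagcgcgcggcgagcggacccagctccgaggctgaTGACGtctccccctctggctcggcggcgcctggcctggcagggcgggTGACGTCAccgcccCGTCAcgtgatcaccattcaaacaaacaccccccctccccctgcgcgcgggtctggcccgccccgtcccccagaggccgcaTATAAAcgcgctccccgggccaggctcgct
JUN, chr1:58784048-58784297, minus strand: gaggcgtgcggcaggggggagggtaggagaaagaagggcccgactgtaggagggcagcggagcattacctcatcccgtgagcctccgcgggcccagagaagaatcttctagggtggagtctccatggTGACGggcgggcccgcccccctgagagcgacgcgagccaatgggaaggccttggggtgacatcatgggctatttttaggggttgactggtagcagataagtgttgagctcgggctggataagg
JUND, chr19:18281623-18281872, minus strand: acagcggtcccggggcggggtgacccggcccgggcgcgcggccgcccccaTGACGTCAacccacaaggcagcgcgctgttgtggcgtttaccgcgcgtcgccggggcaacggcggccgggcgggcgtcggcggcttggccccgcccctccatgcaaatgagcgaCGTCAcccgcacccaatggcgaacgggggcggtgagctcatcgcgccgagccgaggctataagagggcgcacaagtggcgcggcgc
EGR1, chr5:138465229-138465478, plus strand: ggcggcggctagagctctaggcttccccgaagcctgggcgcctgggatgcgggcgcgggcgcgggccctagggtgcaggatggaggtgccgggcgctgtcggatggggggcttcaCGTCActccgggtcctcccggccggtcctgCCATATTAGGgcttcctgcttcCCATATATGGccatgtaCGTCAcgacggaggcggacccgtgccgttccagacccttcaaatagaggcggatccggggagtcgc
FOSB, chr19:45467746-45467995, plus strand: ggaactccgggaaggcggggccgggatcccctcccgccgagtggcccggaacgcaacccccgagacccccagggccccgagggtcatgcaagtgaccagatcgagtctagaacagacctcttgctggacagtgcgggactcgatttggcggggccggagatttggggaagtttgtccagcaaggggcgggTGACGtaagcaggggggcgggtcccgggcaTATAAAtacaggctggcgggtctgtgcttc
The CRE core was found in 8 of the 10 windows, those of FOS, FOSB, JUN, JUNB, JUND, EGR1, IER2 and DUSP1, and in 21.22% of all 35116 listed windows of this length. Over the 13645 windows of measured genes alone, the share was 27.9%. The full CRE was found for JUND and DUSP1, and in 1.646% of all windows and 2.5% of those of measured genes. The TATA box was found for FOS, FOSB, JUNB and DUSP1 within 33 bases of the start. For ATF3 its letters occurred only far from the start, from 230 to 225 bases before 1 of its 2 listed start sites. Use of these 2 start sites in RMG1 was not measured. Windows with a TATA box made up 10.72% of all windows and 6.23% of those of measured genes. Both CArG boxes were those of EGR1, from 105 to 96 and from 83 to 74 bases before the start, and 1.159% of all windows and 1.11% of those of measured genes held at least 1. The AP-1 site matched none of the 10 windows, and was found in 4.203% of all windows and 3.08% of those of measured genes. The EGR site matched none either, and was found in 5.368% and 8.33%, respectively. These are matches of letters in a short window and not measured binding. Sites further than 250 bases before a start were outside the search. A gene without a match here, such as FOS for the CArG box, may therefore hold one further upstream.

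ATF3, DUSP1, JUN and FOS were higher in ALDH+ cells, by 1.64-fold to 1.996-fold as the mean of both arrays. IER2, EGR1, JUNB and JUND were higher on each array by smaller ratios, from 1.12-fold to 1.202-fold. FOSB and FOSL1 had ratios of opposite sign on the 2 arrays. Ratios are given as log2 of ALDH+ over ALDH-, after background correction and normalization for dye within each array, so that 0 is equal and 1 is 2-fold higher in ALDH+ cells. In such bulk RNA, fewer cells that express a gene and less RNA per cell cannot be told apart.

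**Figure D1:**
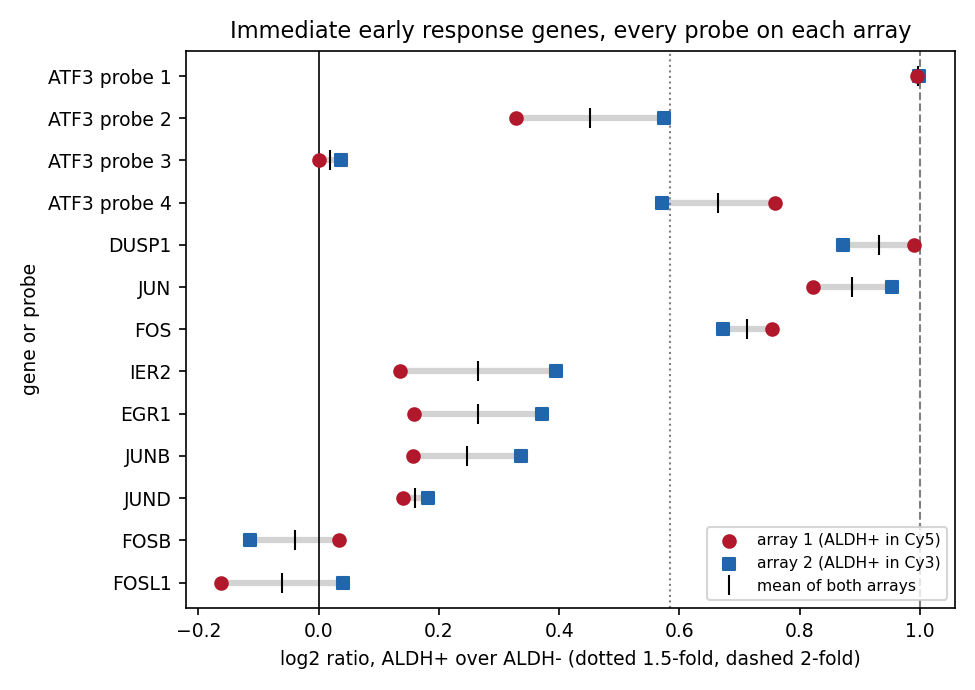
Log2 ratio of ALDH+ over ALDH- cells (x axis) for each of the 13 probes (y axis), with circles for array 1, squares for array 2 and a tick for their mean. The brightest probes of ATF3, DUSP1, JUN and FOS lie above the dotted 1.5-fold line on both arrays, whereas FOSB and FOSL1 straddle 0.

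Of FOS, FOSB and FOSL1, only FOS had a mean ratio larger than the SD of the arrays. Its mean spot signal, in scanner units before normalization, was 4870 in ALDH+ and 1370 in ALDH- cells on array 1, and 2392 in ALDH+ and 2561 in ALDH- cells on array 2. On both arrays the Cy5 signal of this probe was the higher one, whichever population it came from. The log2 ratio of FOS was 0.75 on array 1 and 0.67 on array 2, with a mean of 0.71 ± 0.06 (SD of 2 arrays), or 1.64-fold. Both arrays placed FOS higher in ALDH+ cells, and their SD was far smaller than the ratio. The probe lies on hg19 at chr14:75748214-75748273 on the plus strand. FOSB, a paralog that pairs with JUN proteins in the same way, had signals of 891.5 in ALDH+ and 528.7 in ALDH- cells on array 1, and of 514.7 and 826.3 on array 2. Its log2 ratio was 0.03 on array 1 and -0.11 on array 2, with a mean of -0.04 ± 0.10. FOSL1, which encodes FRA-1, had signals of 366.8 in ALDH+ and 324.4 in ALDH- cells on array 1, and of 305.4 and 341.3 on array 2. Its log2 ratio was -0.16 on array 1 and 0.04 on array 2, with a mean of -0.06 ± 0.14. For FOSB and FOSL1 the difference between populations was smaller than the spread of the arrays. The FOSL1 probe was also dim. Its Cy3 signals were 324.4 and 305.4 on arrays 1 and 2, against 135.2 and 127.2 for the median negative control spot.

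In the JUN family, JUN was well apart from JUNB and JUND. The signal of JUN was 3045 in ALDH+ and 883.6 in ALDH- cells on array 1, and 1612 in ALDH+ and 1404 in ALDH- cells on array 2, so that it was higher in ALDH+ cells in either dye order. Its log2 ratio was 0.82 on array 1 and 0.95 on array 2, with a mean of 0.89 ± 0.09, or 1.85-fold. Its probe lies at chr1:59246511-59246570 of hg19 on the minus strand. JUNB, often an antagonist of JUN, had log2 ratios of 0.16 and 0.34 on arrays 1 and 2, with a mean of 0.25 ± 0.13. JUND, the JUN protein least dependent on stimulation, had log2 ratios of 0.14 and 0.18, with a mean of 0.16 ± 0.03. Both probes were dim. JUNB signals were 236.5 in ALDH+ and 223.7 in ALDH- cells on array 1, and 226.8 and 173.6 on array 2. JUND signals were 253.5 and 232.3 on array 1, and 238.9 and 209.4 on array 2. The negative control spots had medians of 135.2 and 127.2 in Cy3 on arrays 1 and 2, and of 45.1 and 43.1 in Cy5. A large share of the Cy3 signal of the JUNB and JUND probes was thus of the size that negative control spots gave. The offset of 50 added in background correction compresses the ratios of probes as dim as these.

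**Figure D2:**
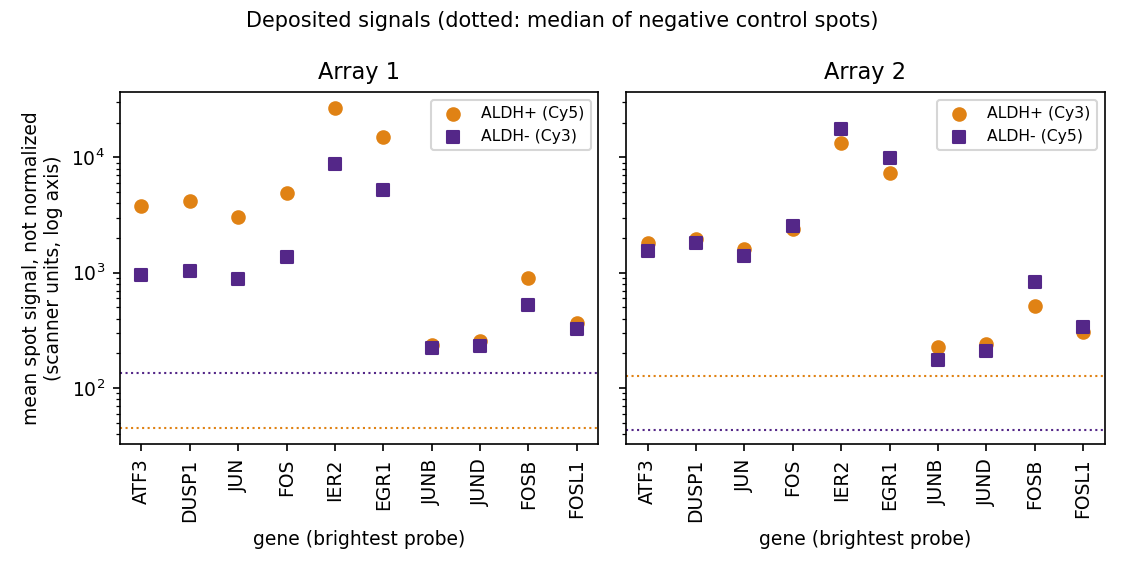
Deposited mean spot signal (y axis, log scale, scanner units, not normalized) of each gene's brightest probe (x axis) on each array, with circles for ALDH+ cells, squares for ALDH- cells and dotted lines for the median of the negative control spots in the same dye. JUNB and JUND lie close to the dotted Cy3 lines, and ATF3, DUSP1 and JUN are higher in ALDH+ cells on both arrays before any normalization.

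ATF3 had 4 probes, and they did not give the same ratio. The brightest, on hg19 at chr1:212793856-212793915, had signals of 3761 in ALDH+ and 955.6 in ALDH- cells on array 1, and of 1819 and 1540 on array 2. Its log2 ratio was 1.00 on each array, and the mean corresponds to 1.996-fold, just under 2-fold. Probe 2, at chr1:212788502-212788561, had log2 ratios of 0.33 and 0.57 on arrays 1 and 2, with a mean of 0.45 ± 0.17. Probe 3, at chr1:212792519-212792578, had log2 ratios of 0.00 and 0.04, with a mean of 0.02 ± 0.03. Probe 4, at chr1:212792837-212792896, had log2 ratios of 0.76 and 0.57, with a mean of 0.67 ± 0.13. Thus 2 of the 4 probes were past 1.5-fold, and their means ran from 0.02 to 1.00. The array assigns probe 2 to the transcript NM_001674 and the other three to NM_001040619. Probes 2 to 4 were dim on both arrays, with signals from 135.6 to 404.9. The first 30 of the 60 bases of each are shown so that the probes can be told apart.
ATF3 probe 1: gatgtcaatagcattgtttttgtcatgtag
ATF3 probe 2: tttgccatccagaacaagcacctctgccac
ATF3 probe 3: aagaagagggtctgcattttcctaaaccca
ATF3 probe 4: tccagaagatgagagaaacctctttatcca
None of the 13 probes shared a run of 20 bases with a probe of another gene. Annotation of exons on hg19 was not used here, so the part of the transcript under each probe is not given.

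EGR1 and IER2 had signals far above the negative control spots and small ratios. EGR1 signals were 14880 in ALDH+ and 5217 in ALDH- cells on array 1, and 7337 and 9783 on array 2. Its log2 ratio was 0.16 on array 1 and 0.37 on array 2, with a mean of 0.27 ± 0.15. IER2 signals were 26810 in ALDH+ and 8792 in ALDH- cells on array 1, and 13400 and 17720 on array 2. Its log2 ratio was 0.14 on array 1 and 0.40 on array 2, with a mean of 0.27 ± 0.18. Both genes were higher in ALDH+ cells on each array after normalization, though the arrays differed from each other by about as much as the mean ratio.

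DUSP1 was printed as 10 spots on each array, whereas each probe of the other 9 genes was printed as 1. On array 1 the signals of the 10 spots had a lowest value of 3154, a median of 4271 and a highest value of 4954 in ALDH+ cells, against 790.4, 1069 and 1208 in ALDH- cells. On array 2 they were 1534, 2026 and 2275 in ALDH+ cells, against 1451, 1842 and 2149 in ALDH- cells. The log2 ratios of single spots ran from 0.91 to 1.103 with a median of 0.98 on array 1, and from 0.81 to 0.99 with a median of 0.85 on array 2. All 10 spots on each array were thus higher in ALDH+ cells, and spots of 1 array are not replicates of the sort. The mean of both arrays was 0.93 ± 0.08, or 1.91-fold. The SD over the 10 spots was 0.05 on array 1 and 0.06 on array 2, against a median of 0.07 on each array over the 629 measured probes with at least 10 spots. The probe lies at chr5:172195296-172195355 of hg19 on the minus strand.

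From the highest mean ratio to the lowest, the order was ATF3, DUSP1, JUN, FOS, IER2, EGR1, JUNB, JUND, FOSB and FOSL1. The place of ATF3 rests on its brightest probe. With all its probes averaged it was at 0.53, below FOS at 0.71. The gap between JUN and FOS (0.18 on the log2 scale), that between FOS and IER2 (0.45) and that between JUND and FOSB (0.20) were larger than the SD of either neighbor, and both arrays ordered those pairs the same way. The other neighbors differed by less than the larger of their SDs. The median SD of the arrays was 0.10 for the 10 genes and 0.11 for all measured genes.

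No gene of the 10 was more than 2-fold higher as the mean of both arrays, against 0.211% of all measured genes, although ATF3 lay at that limit. Among 4 other treatments of the background, ATF3 passed 2-fold with an offset of 10 (1.04 on the log2 scale) and with plain subtraction (1.00), and did not pass it with no correction (0.96) or with background from the negative control spots (0.99). ATF3, DUSP1, JUN and FOS were more than 1.5-fold higher, which is 4 of 10 against 1.51% of all measured genes. With all probes of a gene averaged, ATF3 was not, and the count was 3 of 10 against 1.43%. By brightest probe, the same 4 genes were past 1.5-fold on each array, against 0.984% of all. The lowest of them was FOS at 0.71, and the highest of the remaining 6 was at 0.27, on either side of the 1.5-fold limit of 0.58 on the log2 scale. On both arrays 8 of the 10 genes had ratios above 0, against 33.7% of all measured genes, and none had ratios below 0 on both arrays, against 36.1%. The median log2 ratio was 0.27 for the 10 genes and 0.00 for all 13718. ATF3 ranked 31st, DUSP1 40th, JUN 49th and FOS 107th of all measured genes from the highest ratio. IER2 ranked 1573rd, EGR1 1574th, JUNB 1793rd and JUND 3137th, while FOSB at 7785th and FOSL1 at 8180th were below the middle of the distribution. With median centring in place of loess, 5 of the 10 genes were above 0 on both arrays, against 8.28% of all measured genes at that setting. The genes were picked with earlier results of these data known, so these shares are a description of them.

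**Figure D3:**
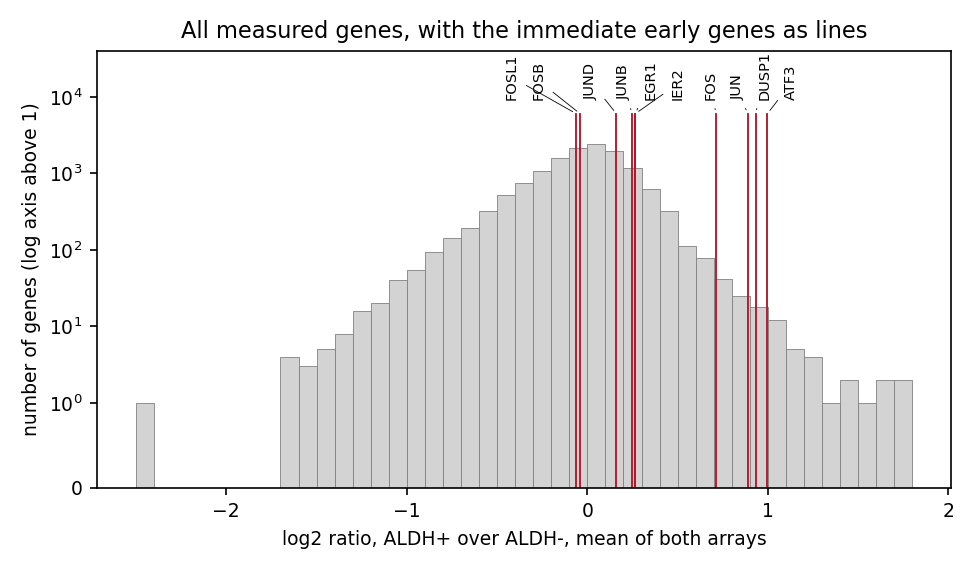
Number of measured genes (y axis, log scale above 1) by log2 ratio of ALDH+ over ALDH- cells in bins of 0.1 (x axis, mean of both arrays), with a line at each immediate early gene. FOS, JUN, DUSP1 and ATF3 lie in the right tail between 0.71 and 1.00, and the other 6 genes lie in the bulk of the distribution.

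Most of the genes have a compact structure, which the choice by name did not use. All but ATF3, which spans 55371 bases of GRCh38.p14, span between 1830 and 8497 bases, against a median of 26866 bases over 11810 measured genes with a known span. Among the 2897 measured genes that span up to 10000 bases, the median log2 ratio was 0.04 and 2.07% were more than 1.5-fold higher in ALDH+ cells.

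Other immediate early genes lay on both sides of 0. Of 40 on the list, 32 were measured, with a median log2 ratio of 0.05. Their counts were 6 more than 1.5-fold higher and 3 more than 1.5-fold lower, against 1.51% and 4.59% of all measured genes, respectively. The highest were EDN1, which encodes the peptide endothelin-1, at 1.58 ± 0.18, the chemokine gene CXCL1 at 1.09 ± 0.19, and PPP1R15A, which encodes a regulatory subunit that directs a phosphatase to eIF2α, at 0.84 ± 0.05. The lowest were ZFP36L2, an mRNA decay factor of the zinc finger type, at -1.21 ± 0.05, the bZIP repressor gene NFIL3 at -0.93 ± 0.17, and ID1, an inhibitor of helix-loop-helix factors, at -0.76 ± 0.28. EDN1 and CXCL1 were more than 2-fold higher, which 0.211% of all measured genes were. ZFP36L2 was more than 2-fold lower, which 0.707% of all measured genes were.

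Partners and relatives of AP-1 had a median near 0, and FOSL2 was lower in ALDH+ cells. Of 19 other AP-1 and bZIP genes, 14 were measured, with a median of -0.07. The counts were 0 more than 1.5-fold higher and 3 more than 1.5-fold lower, against 1.51% and 4.59% of all measured genes, respectively. FOSL2, the FOS family member that encodes FRA-2, had log2 ratios of -1.07 and -1.099 on arrays 1 and 2, so that it was lower in ALDH+ cells by more than 2-fold on each array. MAFK, a small MAF protein, was at -0.97 ± 0.08, and CEBPB, a factor of inflammatory and acute-phase genes, at -0.76 ± 0.17. The highest were DDIT3, which encodes the stress factor CHOP, at 0.50 ± 0.29, MAF at 0.17 ± 0.30 and ATF1 at 0.14 ± 0.37.

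The kinases and factors upstream of the 10 genes had a median near 0. Of 34 MAPK and SRF genes, 33 were measured, with a median of -0.04. Of these, 1 was more than 1.5-fold higher and 3 more than 1.5-fold lower, against 1.51% and 4.59% of all measured genes. The highest were the MAP kinase kinase gene MAP2K2 at 0.67 ± 0.05, HRAS at 0.24 ± 0.15 and BRAF at 0.22 ± 0.04. The lowest were MRTFB, a coactivator of SRF, at -0.74 ± 0.19, the ternary complex factor gene ELK4 at -0.69 ± 0.28, and the p38 kinase gene MAPK11 at -0.67 ± 0.01. Messenger RNA levels say nothing of the phosphorylation through which these proteins act.

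Genes that damp MAP kinase signaling, to which DUSP1 is related, are listed here as ERK feedback genes. They had a median of 0.08 over 13 measured of 17. None was past 1.5-fold either way, against 1.51% higher and 4.59% lower among all measured genes. The highest were SPRY1 at 0.44 ± 0.10, DUSP10 at 0.30 ± 0.03 and DUSP6, the ERK phosphatase, at 0.29 ± 0.33. The lowest were DUSP5 at -0.50 ± 0.13, SPRED1 at -0.19 ± 0.05 and SPRY4 at -0.18 ± 0.05. Of 19 genes known as targets of AP-1, 13 were measured with a median of 0.07. Of these, 3 were more than 1.5-fold higher and 2 more than 1.5-fold lower, against 1.51% and 4.59% of all measured genes. The highest were the metalloproteinase gene MMP10 at 1.02 ± 0.11 and the cytokine genes CXCL8 at 1.01 ± 0.18 and IL6 at 0.73 ± 0.07. The study picked MMP10 from these same arrays partly because it was more than 2-fold higher in ALDH+ cells. The lowest were HMOX1, which encodes heme oxygenase, at -0.85 ± 0.03, VEGFA at -0.73 ± 0.03 and LIF at -0.50 ± 0.09. Heat shock genes, another class of rapidly induced genes, had a median of 0.06 over 13 measured of 17. Of these, 2 were more than 1.5-fold higher, against 1.51% of all measured genes. The highest were DNAJB1 at 0.75 ± 0.10, HSPA6 at 0.70 ± 0.30 and BAG3 at 0.41 ± 0.06, and the lowest were HSP90AA1 at -0.38 ± 0.36, HSPD1 at -0.29 ± 0.01 and HSPE1 at -0.27 ± 0.06.

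**Figure D4:**
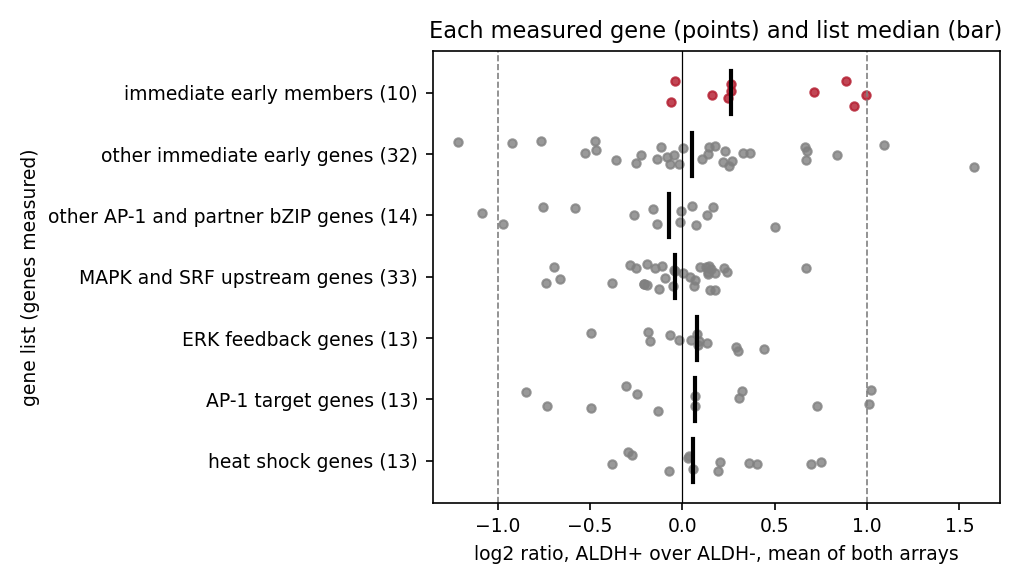
Log2 ratio of ALDH+ over ALDH- cells (x axis, mean of both arrays) of each measured gene in 7 lists (y axis, genes measured in parentheses), with a bar at each list's median and dashed lines at 2-fold. The median is 0.27 for the 10 immediate early genes and between -0.07 and 0.08 for the other 6 lists.

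Markers of cell types were read beside these results. Of 8 epithelial and clear cell markers, 7 were measured, with a median of 0.01 and a range from -0.74 for PAX8 to 0.13 for KRT19. None of 5 fibroblast markers was measured, 1 of 3 endothelial markers was (CDH5 at 0.19), and 3 of 6 leukocyte markers were, from -0.08 for CD68 to 0.45 for CD14. The part of such cells in the ratios of the 10 genes was not tested. Of the genes for the sorted enzyme activity, ALDH1A3 was at 0.61 ± 0.07 and ALDH1A2 at 0.20 ± 0.23, and ALDH1A1 was not well above background.

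DUSP1, JUN and FOS stayed past 1.5-fold under every setting tried, and ATF3 under all but one. Over 12 other settings, the log2 ratio of DUSP1 ran from 0.87 to 1.09, that of JUN from 0.82 to 1.02 and that of FOS from 0.67 to 0.88. ATF3 ran from 0.53, with all 4 probes averaged, to 1.14. IER2 ran from 0.14 to 0.61, EGR1 from 0.16 to 0.56, JUNB from 0.16 to 0.37 and JUND from 0.13 to 0.26. FOSB ran from -0.11 to 0.05 and FOSL1 from -0.16 to 0.04, and these were the 2 genes whose sign changed.

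**Figure D5:**
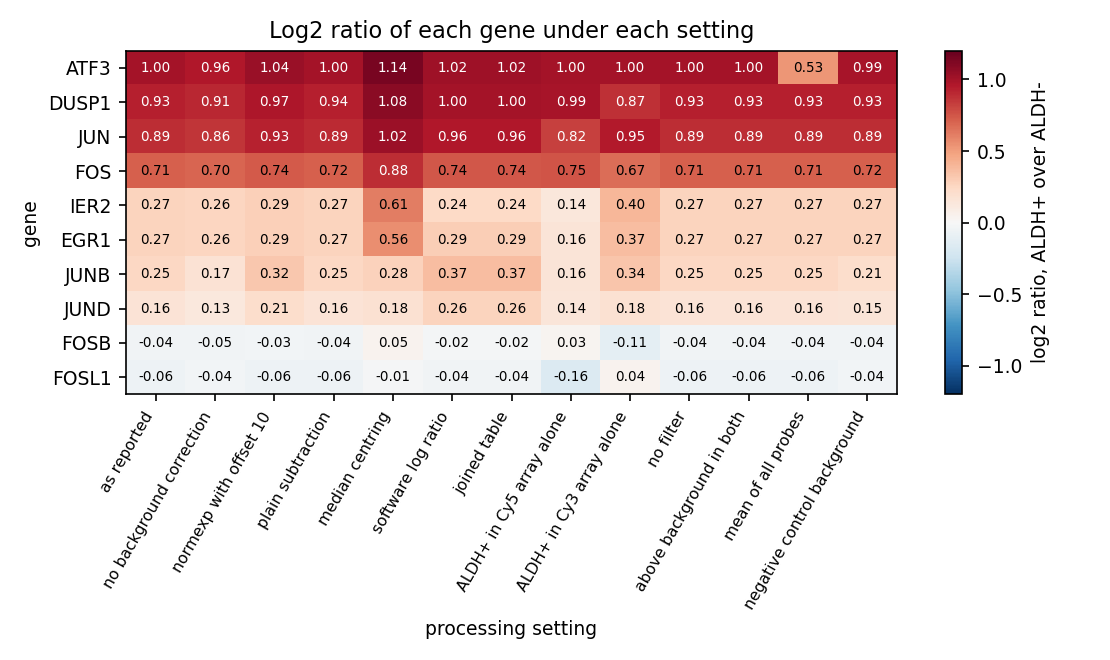
Log2 ratio of ALDH+ over ALDH- cells (color and number in each cell) for each gene (y axis) as reported and under 12 other settings (x axis). ATF3, DUSP1, JUN and FOS stay at 0.53 or higher in every column, and FOSB and FOSL1 stay between -0.16 and 0.05.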

How the data were processed

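RNA of the sorted RMG1 populations was labeled through oligo dT priming and hybridized to 2 two-color Agilent 4x44K arrays with the dyes exchanged. The authors deposited the intensity of each spot and its local background without normalization, and the log10 ratio computed by Feature Extraction, which subtracts a background and normalizes the dyes itself. The file headers give version 10.7.3.1 of that software and the submitters' processing notes 8.5.1.1. A joined table deposited by the authors holds the same log10 ratios. It differed from them by less than 0.001 on the log2 scale at all 86236 values compared, and its 4 signal columns were not used.

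Mean signals were corrected with normexp against the median local background (offset 50) and normalized by loess within each array in R 4.3.3 with limma 3.58.1. Control spots had no weight, and 531 and 519 outlier spots of gene probes were left out. No gene probe spot was saturated. Ratios were turned to ALDH+ over ALDH-, then averaged over a probe's spots and over both arrays. A probe was taken as well above background where over 50% of its spots carried that flag. Of 34127 probes, 16680 met this on both arrays in at least 1 population and had a ratio on each array. A gene was represented by its brightest such probe, and named through RefSeq (GRCh38.p14) for 25422 probes and otherwise as on the array. Between 21697 and 27979 of 43118 gene probe spots were well above background in a population on an array. Precision is limited by the number of arrays, all from 1 sort, and no p-value is given.

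The genes and the 6 pathway lists were chosen with earlier results of these data known. All probes of the 10 genes are named, with the 3 highest and 3 lowest measured genes of each list. The alternatives were other background corrections, median centring, the deposited ratios, each array alone, other filters and all probes averaged, and background taken from negative control spots, an alternative chosen after seeing the data. Normalization was checked on simulated arrays. Python 3.11.15, numpy 2.4.6, pandas 2.3.3 and matplotlib 3.10.9 were used.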

Additional observations from a re-analysis of the deposited data

How the results depend on the processing

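The count of the 10 genes more than 2-fold higher was 0 as reported. It was 1 with a normexp offset of 10, with plain subtraction and with either deposited log ratio (of the software and of the joined table), where ATF3 was at 1.04, 1.00, 1.02 and 1.02, and it was 3 with median centring. The share of all measured genes more than 2-fold higher was 0.474% with that offset, 0.226% with plain subtraction, 0.999% with either deposited log ratio and 0.386% with median centring. With median centring the median log2 ratio of the 10 genes was 0.58, 5 of them were above 0 on both arrays against 8.28% of all measured genes, and the median of all measured genes was 0.07. The count more than 1.5-fold higher was then 5 of 10, with IER2 added at 0.61, against 3.73% of all measured genes. That setting leaves a dependence on signal between the dyes: the median of all measured genes was then 0.56 on array 1 and -0.43 on array 2.

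Of the pathway lists, the medians with median centring were 0.10 for other AP-1 and bZIP genes, 0.20 for other immediate early genes, 0.16 for ERK feedback genes, 0.19 for AP-1 targets and 0.44 for heat shock genes. With an offset of 10 they were 0.10 for ERK feedback genes, 0.083 for AP-1 targets and 0.082 for heat shock genes. Heat shock genes were at 0.047 with no background correction, 0.036 with no filter, 0.11 with ALDH+ cells in Cy5 alone and 0.10 with ALDH+ cells in Cy3 alone. On the latter array other AP-1 and bZIP genes were at -0.18, ERK feedback genes at 0.038 and AP-1 targets at 0.053. AP-1 targets were at 0.089 with either deposited log ratio, at -0.033 with probes well above background in both populations and at -0.008 with all probes averaged, where MAPK and SRF genes were at 0.02. The cause of these changes was not tested.

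Of 120 values of single genes under the 12 alternatives, 103 moved by no more than the SD of the arrays, and 3, of FOSB and FOSL1, changed sign. Many of the 103 could not have moved further. Either array alone always differs from the mean of both by no more than their SD. The other filters left every value as reported, and averaging all probes could change ATF3 only. The joined table repeats the log ratios of the software. The count of 103 therefore does not measure how stable the ratios are. With 1 sort of each population, differences between sorts cannot be estimated, and dim probes such as those of JUNB, JUND and FOSL1 limit what their ratios can show.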
